A study of Mus musculus with 4 samples.

Results

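Multidrug efflux transporters are membrane pumps of the ATP-binding cassette (ABC) family, some of which can move cationic dyes out of cells. The 7 genes examined were fixed by name: *Abcb1a*, *Abcb1b*, *Abcg2*, *Abcc1*, *Abcc3*, *Abcc4* and *Abcc5*. All 7 were found among the 20197 genes of the expression table, each under its Ensembl mouse identifier. The samples were of 4T1, a mammary tumor line of the mouse labelled wild type, whose cells had been stained with 20 nM MitoSpy Red and sorted by flow cytometry. The brightest 5% were collected as cells with high mitochondrial membrane potential (MMP) and the dimmest 5% as cells with low MMP, with 2 samples per group (4 in all). Every sample shared the line, the growth medium and the dye, so the comparison is limited to 1 cell line. The study's supplement counts the samples of a group as independent experiments, and the labels do not say whether a high and a low MMP sample with the same number came from the same experiment.

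ABC exporters use ATP to carry substrates across the plasma membrane. P-glycoprotein is the best known of them. Mice make it from a pair of neighbouring genes, *Abcb1a* and *Abcb1b*, and it exports many lipophilic cations, rhodamine dyes among them. *Abcg2* encodes the breast cancer resistance protein, whose export of Hoechst dye defines side population cells. The *Abcc* genes encode multidrug resistance proteins (MRPs), which mostly carry organic anions and conjugates of glutathione or glucuronic acid. MitoSpy Red collects in mitochondria by membrane potential, and the RNA levels of these pumps were compared between the groups sorted on it. The files hold RNA values, so neither the proteins nor dye export were measured here.

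The libraries held 22591970 to 26395015 reads assigned to genes, recovered from the deposited values. Values below are normalized reads, scaled so that each library sums to 20000000, and differences are high minus low MMP on the log2(normalized reads + 1) scale, which understates the change of low genes. The 5 epithelial markers (*Epcam*, *Krt7*, *Krt8*, *Krt18* and *Cdh1*) had means of 4181 to 16783 normalized reads. Of the endothelial and leukocyte markers, *Cdh5* and *Ptprc* had at most 3 reads in any library, *Pecam1* had 2 to 7, *Cd68* had 79 to 171, and *Kdr* and *Cd3e* were not in the table.

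The P-glycoprotein genes resemble each other enough that reads can be ambiguous between them, so their sequences are given before their values. In GENCODE M21 on GRCm38, *Abcb1a* (ENSMUSG00000040584) lies at chr5:8660077-8748575 and *Abcb1b* (ENSMUSG00000028970) at chr5:8798147-8866315, both on the plus strand and protein-coding. Their coding sequences, each of 3831 bases, were identical at 88.0% of the 3822 aligned bases. The differences were unevenly placed, and 1 run of 338 coding bases was the same in both genes. A stretch of 75 bases, the stated number of sequencing cycles, differed at a median of 5 bases. This pair of windows is an example, where capitals mark the bases that differ (*Abcb1a*, chr5:8737670-8737744 and *Abcb1b*, chr5:8851512-8851586, both exonic, coding and on the plus strand):
Abcb1a: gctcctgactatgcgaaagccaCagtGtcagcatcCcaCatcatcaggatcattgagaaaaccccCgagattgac
Abcb1b: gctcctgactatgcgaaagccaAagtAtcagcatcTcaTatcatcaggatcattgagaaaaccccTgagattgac

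A read from the shared run carries no such base. The middle 75 bases of that run are shown next as an example of a stretch that fits both genes equally. They span an exon boundary in each (chr5:8702518-8702812 in *Abcb1a* and chr5:8824838-8825132 in *Abcb1b*, intron included in the coordinates):
Abcb1a and Abcb1b: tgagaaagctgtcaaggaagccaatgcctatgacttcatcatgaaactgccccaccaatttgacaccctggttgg

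Over the whole transcripts, 11.4% of the 75-base stretches of *Abcb1a* and 12.6% of those of *Abcb1b* occurred in a transcript of another gene, in each case the other P-glycoprotein gene or *Abcb4*. For the other 5 transporters this share was 0%. How the counting treated reads that match several genes is not given in the sources used here.

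**Figure D1:**
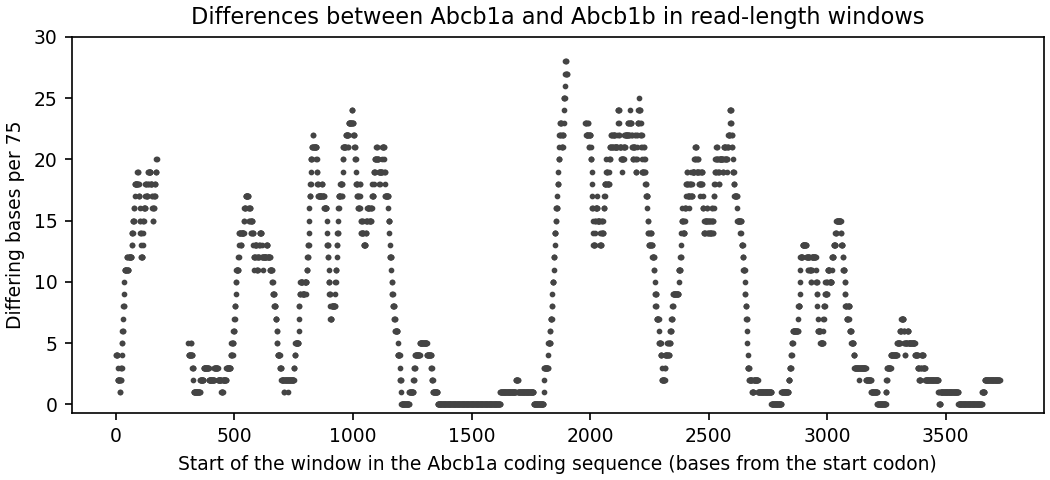
Number of bases that differ between Abcb1a and Abcb1b in each aligned 75-base window (vertical axis, bases) against the window's start in the Abcb1a coding sequence (horizontal axis, bases from the start codon). Windows with an alignment gap are left out; of the 3517 windows, 523 had no difference, the longest series of them in the shared run, and the highest count was 28.

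All 7 transporters were detected in every library, with 28 to 3821 reads per gene and library and so above the floor of 3 reads. Their levels are compared between genes as normalized reads per kb of merged exons, taking all annotated exons of a gene together. *Abcb1b* had the highest level, with a mean of 239 per kb over the 4 libraries (201 to 258), followed by *Abcc1*, the founding MRP, with 170 per kb (131 to 212). These neighbours in the order overlapped in range. *Abcc4*, a carrier of cyclic nucleotides and prostaglandins, came next at 97.9 per kb (71.6 to 128) and did not overlap with *Abcc1*.

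The following 3 were close to each other. *Abcg2* had 67.9 per kb (61.2 to 77.6), *Abcc3*, which carries glucuronides and bile salts, had 57.4 per kb (46.1 to 69.2), and *Abcc5*, another carrier of cyclic nucleotides, had 44.3 per kb (33.3 to 54.0). From *Abcc4* to *Abcc5* each gene overlapped with the next. *Abcb1a* stood apart at the bottom with 7.22 per kb (3.87 to 9.85), and *Abcc5* had 6.13 times its mean level per kb. With the longest transcript as the length, *Abcc3* and *Abcc5* changed places and the other 5 kept their rank. Among the 19993 genes with a length, 21.9% had a higher mean per kb than *Abcb1b* and 64.0% had a higher one than *Abcb1a*.

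**Figure D2:**
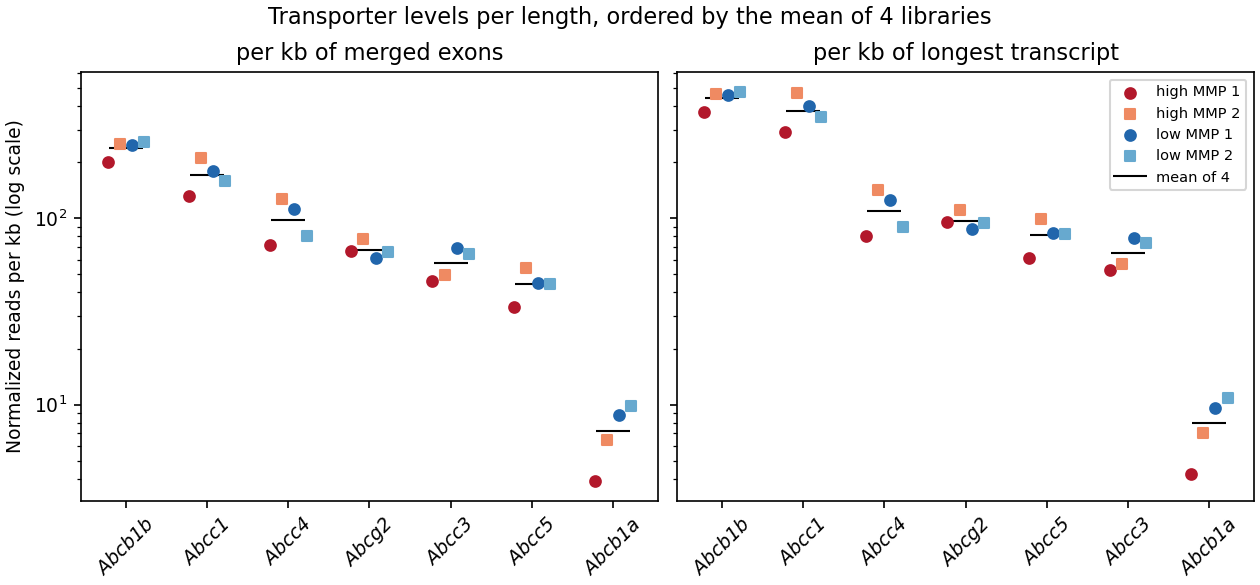
Normalized reads per kb (log scale) of the 7 transporters in each of the 4 libraries, ordered from left to right by the mean (black bars), with merged exons (left) or the longest transcript (right) as the length. Abcb1b and Abcc1 lie at the top and Abcb1a lies below every other member in every library.

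Of the P-glycoprotein genes, the more abundant one is described first. *Abcb1b* had 1603 and 2008 normalized reads in high MMP cells and 1981 and 2062 in low MMP cells. The high MMP 1 library was the lowest and the groups overlapped. The high MMP mean was 1805 ± 286 and the low MMP mean 2021 ± 57.4 (SD, n = 2 samples per mean), with a log2 difference of -0.17 (SE 0.13, 95% interval -0.54 to 0.19; limma p adjusted over all genes 0.783). In these bulk samples, the amount of RNA per cell and the share of cells that carry it cannot be told apart.

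*Abcb1a* had 21.2 and 35.1 normalized reads in high MMP cells and 47.9 and 54.0 in low MMP cells, resting on 28, 42, 55 and 61 reads. Both high MMP libraries lay below both low MMP libraries. The high MMP mean was 28.2 ± 9.85 and the low MMP mean 51.0 ± 4.28 (SD, n = 2 samples per mean), a ratio of 0.553. The log2 difference was -0.87 (SE 0.32, 95% interval -1.74 to -0.00492) and did not pass the test over all genes (limma adjusted p 0.498, unadjusted p 0.0492).

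*Abcb1a* thus made up 1.31% of the reads of the P-glycoprotein genes in high MMP 1 (Wilson 95% interval 0.906% to 1.88%), 1.72% in high MMP 2 (1.28% to 2.32%), 2.36% in low MMP 1 (1.82% to 3.06%) and 2.55% in low MMP 2 (1.99% to 3.26%). These intervals cover counting error only, and between the groups only those of high MMP 1 and low MMP 2 do not overlap. Per kb of merged exons, *Abcb1b* had 51.8 and 39.2 times the level of *Abcb1a* in high MMP 1 and 2, and 28.3 and 26.2 times in low MMP 1 and 2. The sequences shown above bear on the lower of the pair. The share of *Abcb1b* stretches found in other genes, applied to its reads, comes to 267 to 303 reads per library. That is more than the 28 to 61 assigned to *Abcb1a*. The share is for single stretches, while the reads are labelled paired-end, and it does not estimate how many reads were misplaced. The count of *Abcb1a* and its difference remain uncertain. *Gm5106*, an antisense gene that shares 377 bases with *Abcb1b*, had 4 to 12 reads, and use of strand in the counting is not given in the sources used here. *Abcb1a* overlaps the unclassified gene models *Gm42684* (same strand) and *Gm42686* (opposite strand), neither of which was in the table.

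*Abcg2* (ENSMUSG00000029802, chr6:58584523-58695676, plus strand) was the only transporter with both high MMP libraries above both low MMP libraries. It had 545 and 633 normalized reads in high MMP cells and 499 and 539 in low MMP cells, so the groups were separated by a narrow gap. The high MMP mean was 589 ± 62.1 and the low MMP mean 519 ± 28.6 (SD, n = 2 samples per mean). The log2 difference of 0.18 (SE 0.11, 95% interval -0.13 to 0.49) did not pass the test (limma adjusted p 0.723, unadjusted p 0.190).

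*Abcc3* (ENSMUSG00000020865, chr11:94343295-94392997, minus strand) had the smallest p of the 7. It had 263 and 284 normalized reads in high MMP cells against 394 and 367 in low MMP cells. The groups did not overlap, and the samples within each group lay close together. The high MMP mean was 273 ± 14.7 and the low MMP mean 381 ± 18.8 (SD, n = 2 samples per mean), a ratio of 0.718. Its log2 difference was -0.48 (SE 0.10, 95% interval -0.76 to -0.20), with an unadjusted limma p of 0.00867 and an adjusted p of 0.472, which does not pass. By unadjusted p it ranked at 314 of the 20197 genes.

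Beside *Abcb1a* and *Abcc3*, a fibroblast marker, *Pdgfra*, was lower in both high MMP libraries too. The 3 fibroblast markers summed to 334 and 374 normalized reads in high and 548 and 604 in low MMP cells. *Pdgfra* carried nearly all of this (319, 363, 536 and 589 in high MMP 1 and 2 and low MMP 1 and 2). Its log2 difference was -0.72 (SE 0.11, limma adjusted p 0.472). DESeq2 called it (adjusted p 0.0399), beside 0.985% of the 11974 genes it adjusted. It was not called by edgeR with no block (adjusted p 0.580) or with the replicate number as a block (0.0511). *Dcn* and *Pdgfrb* had 2 to 12 reads per library. *Dcn* had a higher mean in high MMP cells (6.22 against 3.53). *Pdgfrb* had a lower one (6.80 against 10.1), and its groups did not overlap. Of the 5 epithelial markers, *Cdh1* also did not overlap between groups, with 3903 and 4726 normalized reads in high and 5421 and 5426 in low MMP cells. Of all genes, 24.5% likewise had both high MMP libraries below both low MMP libraries. The samples were of the 4T1 line, and which cells the *Pdgfra* RNA came from was not tested. Any link of these marker differences to the transporter values was not tested either.

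**Figure D3:**
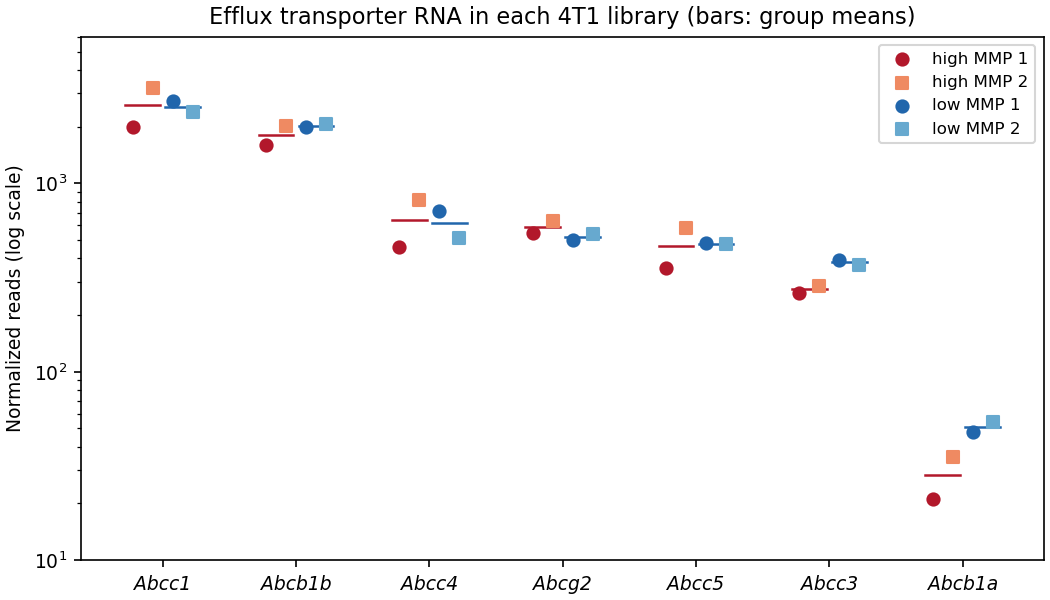
Normalized reads (log scale) of each transporter in the 4 libraries, with group means as bars. Abcb1a and Abcc3 are lower in both high MMP libraries, Abcg2 is higher in both, and for Abcc1, Abcc4 and Abcc5 the high MMP libraries lie on either side of the low MMP ones.

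The remaining 3 MRP genes shared a pattern in which the high MMP libraries were the extremes. *Abcc1* (ENSMUSG00000023088, chr16:14361558-14475737, plus strand) had 1984 and 3198 normalized reads in high MMP cells and 2725 and 2382 in low MMP cells. Its means were 2591 ± 858 and 2554 ± 242 (SD, n = 2 each), and the log2 difference was -0.02 (SE 0.26, 95% interval -0.71 to 0.68; limma adjusted p 0.994). A difference this close to 0 has no settled sign, and it was 0.02 after median-of-ratios rescaling, which raised the differences of all 7 transporters by nearly the same amount.

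*Abcc4* (ENSMUSG00000032849, chr14:118482692-118706219, minus strand) had 458 and 817 normalized reads in high and 716 and 512 in low MMP cells. The means were 637 ± 254 and 614 ± 144 (SD, n = 2 each), with a log2 difference of 0.01 (SE 0.34, 95% interval -0.91 to 0.94; limma adjusted p 0.994). *Abcc5* (ENSMUSG00000022822, chr16:20331303-20426394, minus strand) had 356 and 577 in high and 482 and 476 in low MMP cells. Its means were 466 ± 156 and 479 ± 4.11 (SD, n = 2 each), with a log2 difference of -0.08 (SE 0.25, 95% interval -0.77 to 0.61; limma adjusted p 0.973). The intervals of all 3 extend well to both sides of 0, so equal levels are not shown.

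Between the high MMP replicates, *Abcc1* differed by -0.69, *Abcc4* by -0.83 and *Abcc5* by -0.69 on the log2 scale (replicate 1 minus replicate 2). High MMP 1 was the lowest library and high MMP 2 the highest for these 3 of 7 transporters, against 12.4% of the 12902 genes whose mean reached 10. High MMP 1 was the lowest library for 6 of 7 transporters, with *Abcg2* as the exception. It was the lowest for 37.3% of those 12902 genes, and for 51.0% of the 4546 with a transcript of at least 4000 bases. The longest transcripts of the transporters had 4306 to 6792 bases. High MMP 1 minus high MMP 2 had a median of -0.14 over these long genes and of 0.16 over the 3260 genes with a longest transcript under 2000 bases. With the trend on transcript length removed, the difference between the high MMP replicates was -0.50 for *Abcc1*, -0.68 for *Abcc4* and -0.54 for *Abcc5*, and the high minus low difference was -0.43 for *Abcc3* (limma adjusted p 0.446) and -0.83 for *Abcb1a* (limma adjusted p 0.566).

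**Figure D4:**
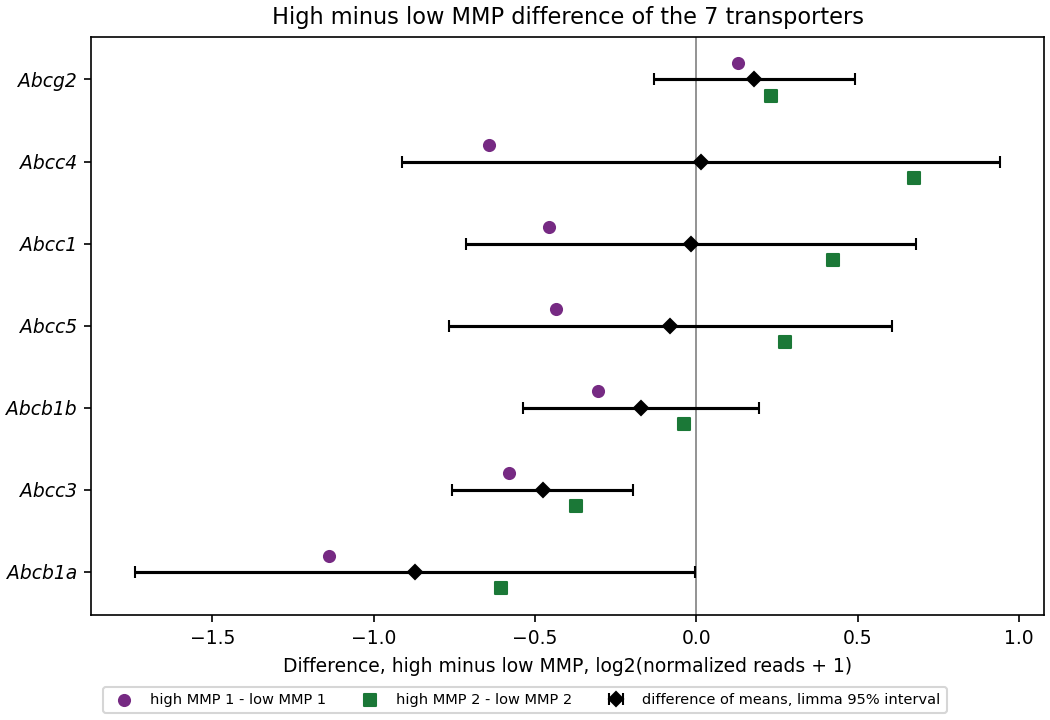
High minus low MMP difference of each transporter on the log2(normalized reads + 1) scale, with the difference of means and its limma 95% interval (black) and the differences of the same-numbered samples (purple, number 1; green, number 2). Abcb1a, Abcc3 and Abcb1b are below 0 in both numbers, Abcg2 is above 0 in both, and Abcc1, Abcc4 and Abcc5 change sign.

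As a set, none of the 7 transporters passed the threshold of 0.05 in limma's test adjusted over all genes, where the share of all genes called was 0%. At an unadjusted p under 0.05, 2 of 7 differed in limma's test, beside 9.96% of all genes. Both were lower in high MMP cells (*Abcb1a* and *Abcc3*), beside 6.01% of all genes in that direction, and 0 were higher, beside 3.95%. The count was 4 without high MMP 2 (16.6% of all genes) and 0 without low MMP 1 (4.44%), and it was again 2 with the length trend removed (8.75% of all genes).

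The other tools, run on the recovered reads, gave a similar count before adjustment. With no block, edgeR called 0 of 7 at an adjusted p (0% of all genes) and 2 at an unadjusted p (7.05%). With the replicate number as a block, edgeR called 0 of 7 at an adjusted p (0.525%) and 2 at an unadjusted p (4.55%). DESeq2, with no block, called 0 of 7 at an adjusted p (0.985% of the 11974 genes it adjusted). It called only *Abcc3* at an unadjusted p (3.27% of all genes). With crossed sample numbers as the block, a fit chosen after seeing the data, edgeR called *Abcb1a* and *Abcc3* at an adjusted p (3.63% of all genes).

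Groups did not overlap for 2 transporters that were lower and 1 that was higher in high MMP cells, beside 24.5% and 13.5% of all genes, or 23.7% and 14.3% of those whose mean reached 10. The median difference of the 7 was -0.08, and that of all genes was -0.04. Together the transporters had 554 and 779 normalized reads per kb in high MMP 1 and 2, and 725 and 681 in low MMP 1 and 2. High MMP 1 and high MMP 2 were the extremes of this sum. It includes *Abcc1*, *Abcc4* and *Abcc5*, so this is not a separate observation. *Abcc1* and *Abcb1b* made up 68.6% to 69.5% of the transporters' reads in each library.

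The wider ABC family was examined in the same fit. Of 46 other ABC genes, 30 were in the table and 17 had a mean of at least 10. Of the pumps known from the bile canaliculus of hepatocytes, *Abcb4* and *Abcc2* were not in the table and *Abcb11* had at most 1 read per library. None of the 30 passed at an adjusted p in limma, edgeR with no block, edgeR with the replicate block or DESeq2, while 4 were lower and 1 was higher at an unadjusted limma p under 0.05, beside 6.01% and 3.95% of all genes. The 1 higher was *Abca1*, with 1 to 10 reads per library, and *Abcc12*, among the 4 lower, had 0 to 3. Groups did not overlap for 10 that were lower and 2 that were higher in high MMP cells, beside the 24.5% and 13.5% of all genes. Among the 17, the counts were 6 and 1, beside 23.7% and 14.3% of all genes whose mean reached 10. The median difference was -0.20 over the 30 and -0.12 over the 17.

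The 3 other ABC genes with the largest differences at a mean of at least 10 were *Tap1*, *Abcg1* and *Abcd4*. *Tap1*, which feeds peptides to MHC class I molecules, had 73.5 and 110 normalized reads in high and 143 and 170 in low MMP cells. Its log2 difference was -0.78 (SE 0.25, limma adjusted p 0.472). *Abcg1*, a cholesterol exporter, had 30.3 and 36.0 in high and 15.7 and 24.8 in low MMP cells, with a difference of 0.71 (SE 0.32, limma adjusted p 0.602). *Abcd4*, a carrier of cobalamin in lysosomes, had 314 and 477 in high and 596 and 585 in low MMP cells, with a difference of -0.61 (SE 0.22, limma adjusted p 0.498). In each of the 3 the groups did not overlap, beside 24.5% of all genes lower and 13.5% higher without overlap. Choice by size of difference favours such genes, so this is not a separate result.

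Over the 4 libraries, other ABC genes near in pattern to the transporters were compared by the root mean square difference of log2 values centred on each gene's mean, over 30 candidates and without a test. *Abca3* was nearest to *Abcb1b* (0.10), *Abcc1* (0.11) and *Abcc5* (0.08), followed by *Abcc10* for *Abcc1* and *Abca9* for *Abcc5*. *Abcc10* was nearest to *Abcc4* (0.07) with *Abcc9* after it, and *Abcb8* to *Abcc3* (0.08) with *Abcb10* after it. *Abcc9* and *Abca9* had a mean near 1 normalized read or under.

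Genes that work beside the transporters showed no call in limma either. Each list had 0 at an adjusted p under 0.05 (0% of all genes) and 0 at an unadjusted p (9.96%). Groups did not overlap for 2 glutathione genes, both higher in high MMP cells. They did not overlap for 1 higher and 1 lower gene among the controlling factors, and likewise among the membrane anchors. Of all genes, 13.5% were higher and 24.5% lower without overlap. Of 8 carriers that can take up or release organic cations, 3 were in the table, and *Slc22a4* had the largest difference at -0.27 (SE 0.32, limma adjusted p 0.865). Of 13 genes of glutathione synthesis, reduction, breakdown and conjugation, 12 were in the table with a median difference of 0.02. *Gsta4*, a glutathione transferase, had the largest, with 271 and 162 normalized reads in high and 108 and 141 in low MMP cells (log2 difference 0.76, SE 0.31, limma adjusted p 0.546). It was not called by edgeR with no block (adjusted p 0.689), edgeR with the replicate block (0.0618) or DESeq2 (0.260). With crossed numbers as the block, edgeR called it, beside 3.63% of all genes.

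Of 10 transcription factors known to control ABC genes, with their partners, 8 were in the table with a median difference of -0.04. The xenobiotic receptor genes *Nr1i2* and *Nr1i3* were not in the table, *Nfe2l2* differed by -0.11 (SE 0.12, limma adjusted p 0.855), and the largest difference was that of *Trp53* at -0.19 (SE 0.16, limma adjusted p 0.811). Of 6 symbols for proteins that anchor transporters at the membrane, 4 were in the table, with a median difference of -0.08 and the largest for *Slc9a3r1* at -0.17 (SE 0.12, limma adjusted p 0.752).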

How the data were processed

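Reads of 75 bases, labelled paired-end, of stranded mRNA libraries (RNA of 100000 cells per sample, 200 ng per library) were aligned by the authors to the mouse transcriptome of GRCm38 (mm10) with STAR and quantified per gene. HTSeq is also named in the submitters' processing notes, and versions are not given in the sources used here. The deposited values are a normalized signal, reads divided by the library total, filtered by the authors on the number of samples that express a gene (each gene had a value above 0 in 2 or more libraries). Each column sums to 20000000 up to rounding, and 0 columns belonged to no sample. All values were whole multiples of 1 step per library within 0.05 reads (100.0%), which gave the recovered reads. Symbols, positions and lengths came from GENCODE M21, with 19993 of 20197 identifiers matched.

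The log2(value + 1) of each gene was compared between groups by limma 3.58.1 (trend on the mean) in R 4.3.3, adjusted by Benjamini-Hochberg over all 20197 genes at 0.05. Alternatives were other pseudocounts, filters, scalings, blocks, left-out replicates, and edgeR 4.0.16 and DESeq2 1.42.0 on recovered reads. Crossed numbers as the block and removal of a trend on transcript length were added after seeing the data. Only the main limma fit and the edgeR and DESeq2 fits with no block were tested on simulated data. Shared stretches and alignments were computed in Python 3.11.15 with Biopython 1.88 on the transcript's own strand. The transporters and gene lists were chosen with earlier results of these data known. Named genes were the 7 transporters, any listed gene past the adjusted threshold, the most different 3 other ABC genes and 1 gene of each further list whose mean reached 10, and the 2 nearest ABC genes per transporter whose mean reached 100. Genes outside this rule were named after their values were seen. Some of the nearest genes are not reported here.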

Additional observations from a re-analysis of the deposited data

How the results depend on the processing

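The 4 samples limit every test here, and *Abcb1a* rests on few reads. Each transporter's difference was recomputed under 18 alternatives, 3 of them chosen after seeing the data. The sign stayed the same in all 18 for *Abcb1a*, *Abcb1b*, *Abcg2* and *Abcc3*, in 17 for *Abcc5*, 16 for *Abcc4* and 10 for *Abcc1*. Part of this was fixed in advance. The filters, the limma blocks and the fit with no variance trend leave the difference itself unchanged. For *Abcb1a*, *Abcg2* and *Abcc3*, whose groups did not overlap, leaving out a sample cannot change the sign. *Abcc1*, at -0.02 in the main test, was 0.0249 with median-of-ratios scaling, 0.0570 with edgeR, 0.0213 with edgeR and the replicate block, 0.0599 with DESeq2, 0.0227 with edgeR and crossed numbers and 0.0159 with the length trend removed. With each sample left out in turn, the difference ranged for *Abcb1a* from -1.22 to -0.52, *Abcb1b* from -0.33 to -0.0095, *Abcg2* from 0.07 to 0.29, *Abcc3* from -0.53 to -0.42, *Abcc1* from -0.36 to 0.33, *Abcc4* from -0.40 (without high MMP 2) to 0.43, *Abcc5* from -0.43 to 0.27 (without high MMP 1), and for the median of the 7 from -0.40 to 0.27. *Abcc4* was also negative without low MMP 2 (-0.23), and *Abcc1* positive without high MMP 1 (0.33) and low MMP 1 (0.08). The cause was not tested.

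The number of transporters at an unadjusted p under 0.05, 2 in the main test, was 1 with a pseudocount of 5 (7.91% of all genes), median-of-ratios scaling (9.89%), quantile normalization (10.8%), no variance trend (9.80%), the limma replicate block (5.22%), DESeq2 (3.27%) and the limma crossed block (10.5%), and 0 to 4 with 1 sample left out (4.44% to 16.6%). *Abcc3* was under 0.05 in 17 of the 18 (the exception left out low MMP 1) and *Abcb1a* in 8. For other ABC genes the count of 5 became 2 with a pseudocount of 0.5 (9.74% of all genes), no variance trend or edgeR (7.05%), 3 with median-of-ratios scaling, 1 with quantile normalization, and 0 to 11 with 1 sample left out. The ratio of the highest to the lowest transporter level per kb was 33.2 with merged exons and 56.1 with the longest transcript.

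Same-numbered samples deviated oppositely (correlation -0.42 over 12902 genes). With 2 samples per group, this cannot decide pairing. With the replicate number as a block, edgeR called 106 genes at an adjusted p under 0.05 and 0 transporters. With no block, edgeR called 0 genes, and DESeq2 called 118 genes and 0 transporters. With crossed numbers as the block, edgeR called 733 genes (3.63% of all genes). Among these were 2 of the 7 transporters and 6 of the 30 other ABC genes. With the same block, limma called 0 genes and so 0 transporters.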
